A study of Mus musculus with 6 samples.

Results

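A set of 10 genes that are used to tell brown, beige and depot-specific fat apart, most of them for transcription factors, cofactors or surface proteins, was followed here. The genes are Prdm16, Ebf2, Zic1, Lhx8, Irf4, Zbtb16, Tbx1, Tmem26, Epsti1 and Tnfrsf9. They were picked by symbol and are 10 of the 21959 genes in the deposited table. The libraries were bulk RNA-seq of dorsal skin, taken at full thickness from male C57BL/6 mice aged 7 weeks whose backs were shaved while the hair cycle was in telogen. In the vehicle group 3 mice received 30% dipropylene glycol in 70% water on the skin daily for 7 days, and in the rebamipide group 3 mice received 3% rebamipide in the same way. Rebamipide is a quinolinone compound used as a mucosal protective drug. Each library came from 1 mouse and holds every cell type of the tissue, including the fat and muscle below the dermis as far as they were excised.

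Brown fat burns fatty acids to make heat through the uncoupling protein UCP1, and beige cells acquire the same program inside white fat. PRDM16 is the zinc finger coregulator that drives the brown program and represses muscle and white fat genes, and EBF2 is the factor that opens brown fat chromatin ahead of PPARγ. ZIC1 and LHX8 are developmental transcription factors used as markers of classical brown fat, whereas TBX1, TMEM26 and TNFRSF9 (CD137) are used as markers of beige cells and EPSTI1 of brown cells. IRF4 partners the coactivator PGC-1α in thermogenic transcription, and ZBTB16 (PLZF) is a zinc finger factor linked to adipose thermogenesis.

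Prdm16 and Ebf2 were higher in rebamipide-treated skin, by 2.59 ± 0.42 and 2.84 ± 0.57 (log2 fold change ± SE, n = 3 per group). CPM below are read counts scaled to library size with TMM factors, which correct for a few very abundant genes. The factors were 1.279, 1.235 and 1.21 for the vehicle libraries and 0.929, 0.746 and 0.755 for the rebamipide libraries. By total counts alone the log2 fold changes of Prdm16 and Ebf2 were 1.95 and 2.19, where the median of all genes was -0.78. Zic1, the classical brown marker, did not pass the test, with a log2 fold change of 0.09 ± 0.42. Irf4 and Zbtb16 had higher values in each rebamipide library than in any vehicle library after TMM scaling, but not in FPKM, which divides by library totals alone, and did not pass the test. The beige and brown panel markers Tbx1, Tmem26, Epsti1 and Tnfrsf9 had lower means. Counts were tested in edgeR (quasi-likelihood, Benjamini-Hochberg adjustment over 14875 genes), and all 10 genes passed its expression filter. At an adjusted p-value under 0.05, 2 of the 10 were called higher and 0 lower, where 14.1% of all genes tested were called higher and 6.51% lower. At an unadjusted p-value under 0.05, 4 of the 10 differed, against 39.7% of all genes. DESeq2 at an adjusted p-value under 0.05 called 3 higher and 0 lower, where it called 18.3% of all genes higher and 17% lower. Groups did not overlap, with rebamipide above, for 4 of the 10, against 24.5% of all genes, and with rebamipide below for 0, against 24% of all genes. In FPKM this held with rebamipide above for 2 (Prdm16 and Ebf2), against 13% of all genes, and with rebamipide below for 0, against 47.9%. Under the study's thresholds (unadjusted p-value under 0.05, absolute log2 fold change over 1), edgeR called 3 higher and 0 lower, where 14.3% of all genes were called higher and 14.5% lower. The median log2 fold change of the 10 was 0.50, and that of all genes tested was -0.17.

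**Figure D1:**
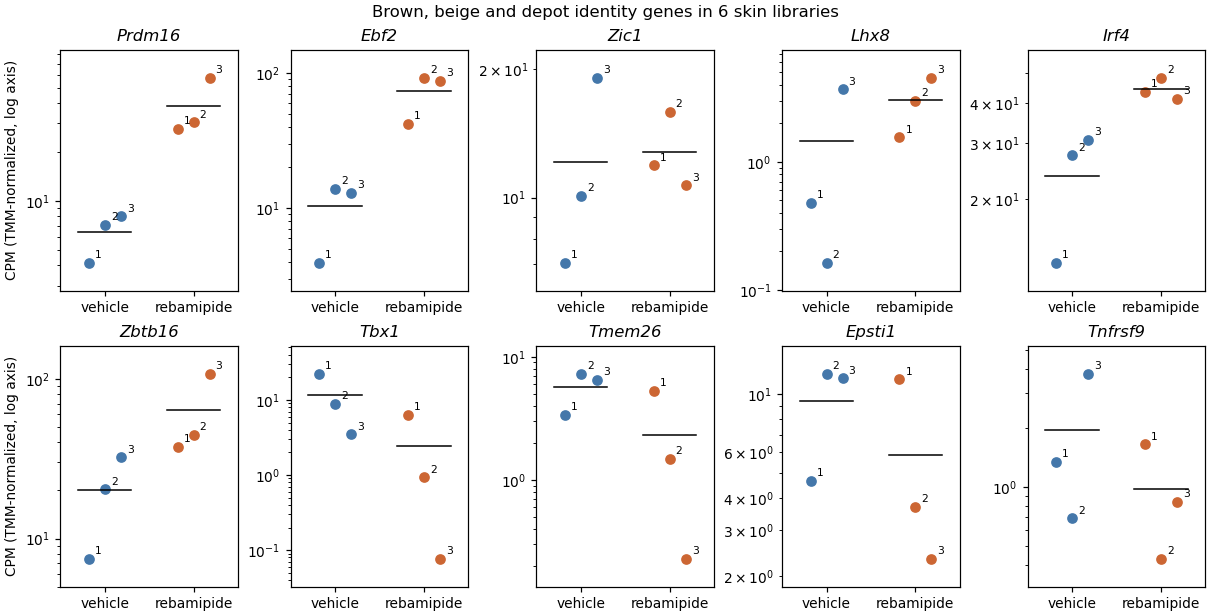
Normalized CPM (log axis, a scale of its own in each panel) of the 10 genes in 3 vehicle (blue) and 3 rebamipide (orange) libraries, where numbers are replicates and black lines are group means. Prdm16, Ebf2, Irf4 and Zbtb16 do not overlap between groups (Irf4 and Zbtb16 do in FPKM), whereas Tbx1 falls from 22.4 CPM in the first vehicle library to 0.0763 CPM in the third rebamipide library.

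The libraries held 32709801 to 39915276 counted reads, and a count of 0 allows up to 3 reads, which covers counting error only. The RNA of cell type markers differed between libraries. The 6 adipocyte markers (Adipoq, Plin1, Cidec, Pparg, Cebpa and Lipe) summed to 578, 930 and 1629 CPM in the vehicle libraries and to 4101, 5378 and 6811 CPM in the rebamipide libraries, and all 6 were called higher. Basal keratinocyte markers (4 genes) summed to 1986 to 3446 CPM in the vehicle libraries and to 936, 524 and 1.76 CPM in the rebamipide libraries, with 0 of the 4 called in edgeR and with 1 unadjusted p-value under 0.05. The third rebamipide library had 0 counts of Krt14, the keratin of basal keratinocytes, and 257 CPM of fast muscle markers where the other 5 libraries had 5047 to 31959 CPM. This library was thus nearly without the epidermal markers of its labelled tissue, and values without it are given for each of the 10 genes and for the gene lists. Endothelial markers (5 genes, with Cdh5 and Kdr called higher) summed to 224, 342 and 540 CPM with vehicle and to 1023, 1188 and 1405 CPM with rebamipide. Slow muscle markers (5 genes, with Myh7, Myl3 and Tnnc1 called higher) summed to 7.59, 13 and 1.9 CPM with vehicle and to 224, 101 and 5.88 CPM with rebamipide. Mitochondrially encoded genes took 2.59% to 5.36% of the reads with vehicle and 13.28% to 21.96% with rebamipide. The part of these differences in the results was not tested. In bulk tissue, fewer cells of a type and less RNA per cell cannot be told apart.

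Among the brown lineage factors, Prdm16 (ENSMUSG00000039410, GRCm39 chr4:154400582-154721330, minus strand) was at 4.13, 7.13 and 8.04 CPM with vehicle and at 27.8, 30.6 and 57.5 CPM with rebamipide. The lowest rebamipide library thus lay above the highest vehicle library, and the adjusted p-value of edgeR was 0.0134. Ebf2 (ENSMUSG00000022053, chr14:67470741-67668367, plus strand) was at 3.93, 13.9 and 13 CPM with vehicle and at 42.1, 92.1 and 87.3 CPM with rebamipide. The groups were again separate, with an adjusted p-value of 0.023 in edgeR. Without the third rebamipide library, the log2 fold changes were 2.19 for Prdm16 and 2.71 for Ebf2, with adjusted p-values of 0.0287 and 0.0488 in edgeR. Without the second vehicle library edgeR called 0 of all genes, although 4116 had an unadjusted p-value under 0.05, and Prdm16 and Ebf2 had adjusted p-values of 0.0788 and 0.0902. Without the second rebamipide library edgeR called 1 of all genes, and their adjusted p-values were 0.0591 and 0.0901. DESeq2 called both higher with any 1 library left out.

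Zic1 (ENSMUSG00000032368, chr9:91240111-91247863, minus strand) was at 7.03, 10.1 and 19.1 CPM with vehicle and at 11.9, 15.9 and 10.7 CPM with rebamipide. The rebamipide libraries all lay within the vehicle range, with an adjusted p-value of 0.89 in edgeR. The sign of this difference depended on the scaling, with a log2 fold change of -0.52 by total counts alone. It was 0.59 without the third vehicle library and 0.21 without the third rebamipide library, and none of these passed the test. Zic1 overlaps the divergently transcribed Zic4 by 3398 bases. Zic4, a ZIC family factor, had 32, 61 and 72 counts with vehicle and 21, 32 and 43 with rebamipide, and the strand setting of the counting is not given in the sources used here, so reads of the shared stretch cannot be told apart.

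Lhx8 (ENSMUSG00000096225, chr3:154011931-154036296, minus strand), a LIM homeobox factor, was at 0.481, 0.162 and 3.7 CPM with vehicle and at 1.55, 3 and 4.54 CPM with rebamipide. The third vehicle library lay within the rebamipide range and the other 2 below it. The log2 fold change was 1.06 ± 1.12, with an adjusted p-value of 0.498 in edgeR. The third vehicle library decided this value, since without it the log2 fold change was 3.22 with an adjusted p-value of 0.053 in edgeR, and DESeq2 gave 3.27 with an adjusted p-value of 0.000111. Without that library DESeq2 called 5 of the 10 genes higher (Prdm16, Ebf2, Lhx8, Irf4 and Zbtb16), where 22.6% of all genes were called higher. Without the third rebamipide library the log2 fold change of Lhx8 was 0.66 in edgeR.

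The promoters of Prdm16, Zic1 and Lhx8 are shown because these genes were grouped here as brown lineage factors. The grouping does not separate brown from beige cells, and the log2 fold changes of Prdm16 and Zic1 differed. RefSeq start sites gave a promoter, 250 bases before to 50 after the start, for 8 of the 10 genes, with Ebf2 and Zbtb16 unmatched. Positions of these sequences are on GRCm38.p6 and differ from the GRCm39 positions of the counts. They are written 5′ to 3′ on the gene's strand, with GGGCGG and CCAAT matches of either strand in capitals, at chr4:154636824-154637123 for Prdm16, chr9:91365719-91366018 for Zic1 and chr3:154330511-154330810 for Lhx8, all on the minus strand.
Prdm16: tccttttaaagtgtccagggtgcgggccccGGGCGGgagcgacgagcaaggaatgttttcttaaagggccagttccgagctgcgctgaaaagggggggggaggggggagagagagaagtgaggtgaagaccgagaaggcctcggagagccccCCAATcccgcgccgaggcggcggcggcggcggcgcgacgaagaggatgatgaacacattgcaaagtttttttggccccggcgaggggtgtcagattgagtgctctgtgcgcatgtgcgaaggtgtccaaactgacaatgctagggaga
Zic1: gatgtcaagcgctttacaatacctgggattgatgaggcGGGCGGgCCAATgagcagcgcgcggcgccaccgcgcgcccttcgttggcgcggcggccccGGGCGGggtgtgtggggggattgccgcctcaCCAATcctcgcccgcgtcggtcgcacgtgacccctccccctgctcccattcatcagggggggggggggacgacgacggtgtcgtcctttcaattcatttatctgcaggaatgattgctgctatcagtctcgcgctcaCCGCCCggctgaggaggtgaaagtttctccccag
Lhx8: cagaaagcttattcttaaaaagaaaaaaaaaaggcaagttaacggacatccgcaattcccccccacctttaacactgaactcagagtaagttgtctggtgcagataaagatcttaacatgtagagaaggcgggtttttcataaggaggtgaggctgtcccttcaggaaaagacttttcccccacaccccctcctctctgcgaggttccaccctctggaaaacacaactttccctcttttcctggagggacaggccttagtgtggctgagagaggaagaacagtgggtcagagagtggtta
A search of both strands covered the 6 short motifs whose shares are given after the positions. The Prdm16 promoter held GGGCGG 220 bases and CCAAT 98 bases before the start. The Zic1 promoter held GGGCGG 212 and 152 bases before the start and on the other strand 17 bases after it, and CCAAT 205 and 121 bases before it. The Lhx8 promoter held none of the 6 motifs, which says only that these letters are not in this window. Of 32851 promoters of the same length, GGGCGG was in 35.7% and CCAAT in 37.4%, while TATAAA was in 13.6%, AGGTCA in 16.3%, CCCNNGGG in 13.7% and TGACGTCA in 1.79%. The GC content was 61% for Prdm16, 65.3% for Zic1 and 47% for Lhx8, with 24, 31 and 4 CpG, where the median of all promoters was 52.7% with 7 CpG.

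Because the scaling of libraries moves every CPM, counts were also divided by the Zic1 count of the same library, which needs no scaling. The choice of Zic1 as divisor was made after its values were seen. There were 0.587, 0.706 and 0.42 Prdm16 reads per Zic1 read in the vehicle libraries and 2.34, 1.92 and 5.39 in the rebamipide libraries. For Ebf2 the ratio was 0.558, 1.38 and 0.682 with vehicle and 3.55, 5.78 and 8.17 with rebamipide. Prdm16 and Ebf2 were thus more abundant than Zic1 in reads in each of the 3 rebamipide libraries, whereas in the vehicle libraries only the Ebf2 ratio of the second exceeded 1. The mean log2 ratio was higher with rebamipide by 2.37 for Prdm16 and by 2.77 for Ebf2. Of the 9 ratios, those of Prdm16, Ebf2, Irf4 and Zbtb16 did not overlap between groups, with rebamipide above, which is a description with no test since the divisor was chosen for its small change. Of all other genes tested, the ratio to Zic1 was without overlap in 13.3% with rebamipide above and in 14.2% with rebamipide below, the latter holding for 0 of the 9. The Lhx8 ratio was 0.0684, 0.0161 and 0.193 with vehicle and 0.13, 0.188 and 0.425 with rebamipide, and these overlapped.

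**Figure D2:**
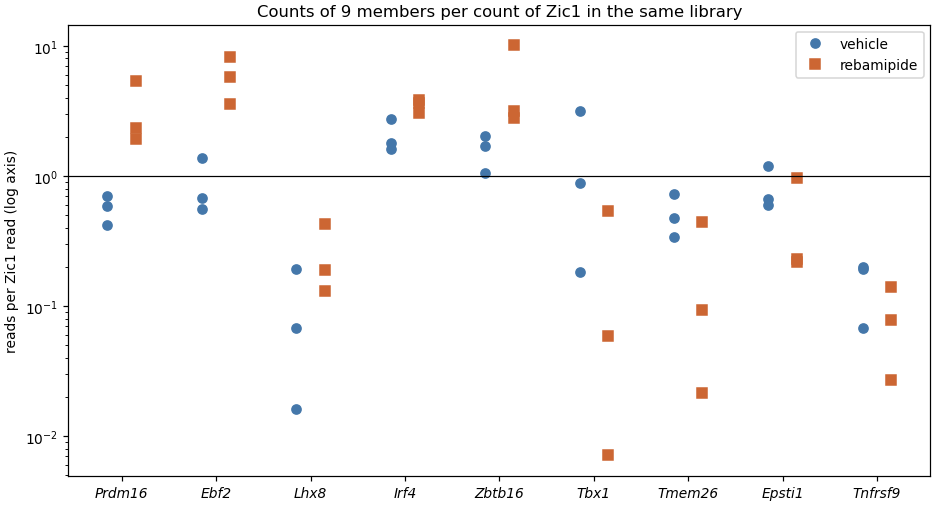
Reads of each of 9 genes per Zic1 read in the same library (log axis, raw counts), with vehicle libraries as blue circles and rebamipide libraries as orange squares. For Prdm16 the 3 vehicle libraries lie at 0.42 to 0.706 and the 3 rebamipide libraries at 1.92 to 5.39.

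Set against the adipocyte markers of the same library, Prdm16 and Ebf2 overlapped between the groups. The log2 CPM of Prdm16 minus the mean log2 CPM of the 6 adipocyte markers was -4.25, -4.20 and -4.78 with vehicle and -4.41, -4.73 and -4.12 with rebamipide. For Ebf2 the difference was -4.33, -3.23 and -4.08 with vehicle and -3.81, -3.14 and -3.52 with rebamipide. For both genes the rebamipide values lay among or next to the vehicle values. For Zic1 it was -3.49, -3.70 and -3.53 with vehicle and -5.64, -5.67 and -6.55 with rebamipide, and the groups were separate. Irf4, Tbx1, Tmem26, Epsti1 and Tnfrsf9 were also separate on this measure, with rebamipide below. The share of all genes that were separate in this way was not computed. With libraries scaled to the 6 markers, edgeR gave log2 fold changes of -0.01 ± 0.49 for Prdm16, 0.34 ± 0.52 for Ebf2 and -2.33 for Zic1, the last with an adjusted p-value of 0.00546. This scaling moved the median of all genes to -2.80 and called 6 of the 10 genes lower (Zic1, Irf4, Tbx1, Tmem26, Epsti1 and Tnfrsf9) and 0 higher, where 85.9% of all genes were called lower and 0.8% higher.

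**Figure D3:**
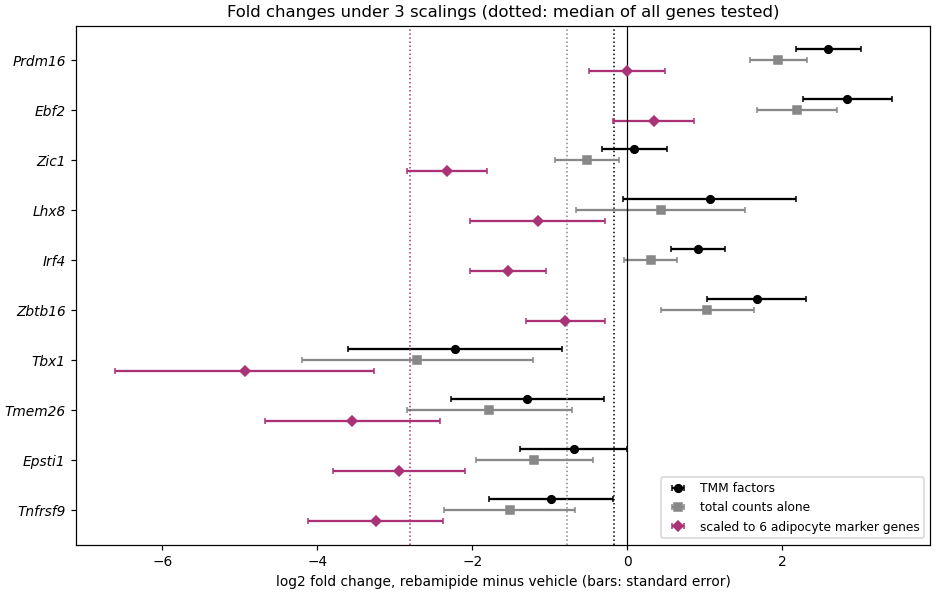
Log2 fold change with its standard error (bars) of the 10 genes under TMM factors (black circles), total counts alone (grey squares) and scaling to 6 adipocyte markers (purple diamonds), with dotted lines at the median of all genes under each. Prdm16 and Ebf2 sit at 2.59 and 2.84 under TMM factors and near 0 under adipocyte scaling, at -0.01 and 0.34.

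Irf4 (ENSMUSG00000021356, chr13:30933209-30950959, plus strand) was at 12.6, 27.5 and 30.8 CPM with vehicle and at 43.6, 48.2 and 41.3 CPM with rebamipide. The groups did not overlap after TMM scaling, and the log2 fold change of 0.91 ± 0.35 had an adjusted p-value of 0.109 in edgeR. In FPKM they did, at 3.27, 6.91 and 7.59 with vehicle and 8.25, 7.34 and 6.35 with rebamipide. The log2 fold change was 0.30 by total counts alone and 0.97 without the third rebamipide library. The adjusted p-value of DESeq2 was 0.0824, and DESeq2 called Irf4 higher without the first vehicle library (log2 fold change 0.60, adjusted p-value 0.00431) and without the third (1.17, 0.00769). Irf4 is also a factor of lymphoid and myeloid cells. Leukocyte markers (5 genes) summed to 84.7, 186 and 228 CPM with vehicle and to 191, 70.4 and 40 CPM with rebamipide, with 0 of 5 called in edgeR (1 with an unadjusted p-value under 0.05), and their part in the Irf4 values was not tested. B cell markers (5 genes, 3 tested) summed to 0.601, 4.06 and 2.91 CPM with vehicle and to 8.63, 3.55 and 11.1 CPM with rebamipide. Of these Cd79a, a B cell receptor chain, was called higher, with 4, 8 and 10 counts with vehicle and 31, 27 and 51 with rebamipide (log2 fold change 3.11, adjusted p-value 0.0187 in edgeR). The part of B cells in the Irf4 values was not tested.

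Zbtb16 (ENSMUSG00000066687, chr9:48565597-48747522, minus strand) was at 7.45, 20.3 and 32.3 CPM with vehicle and at 37.7, 44.7 and 108 CPM with rebamipide. The third rebamipide library stood well above the other 5, and the groups did not overlap after TMM scaling. In FPKM they did, at 1.8, 4.73 and 7.39 with vehicle and 6.62, 6.32 and 15.5 with rebamipide. The log2 fold change was 1.67 ± 0.64, with an adjusted p-value of 0.109 in edgeR and 0.0401 in DESeq2. By total counts alone it was 1.03. Without the third rebamipide library the log2 fold change was 1.05 in edgeR, and the adjusted p-value of DESeq2 was 0.201. The DESeq2 call was also lost without the first vehicle library (0.099) and without the second (0.14).

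Among the panel markers, Tbx1 (ENSMUSG00000009097, chr16:18399729-18409421, minus strand), a T-box factor, was at 22.4, 8.93 and 3.49 CPM with vehicle and at 6.39, 0.935 and 0.0763 CPM with rebamipide. The first rebamipide library lay within the vehicle range and the other 2 below it, with a log2 fold change of -2.23 ± 1.38 and an adjusted p-value of 0.265 in edgeR. Tbx1 was highest in the library with the most melanocyte marker RNA. Those 6 markers summed to 1052, 287 and 56.2 CPM with vehicle and to 131, 18 and 9.24 CPM with rebamipide, in the same order as Tbx1 in all 6 libraries. Of these, Mitf, the melanocyte master regulator, had a log2 fold change of -1.89 and passed the test as lower, with an adjusted p-value of 0.0125 in edgeR. The other 5 melanocyte markers were not called. Hair follicle bulge markers (5 genes, 0 called in edgeR and 2 with an unadjusted p-value under 0.05) summed to 501, 495 and 352 CPM with vehicle and to 181, 76.3 and 36.4 CPM with rebamipide. The part of these cells in the Tbx1 values was not tested.

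Tmem26 (ENSMUSG00000060044, chr10:68559476-68618480, plus strand), a transmembrane protein, was at 3.37, 7.29 and 6.52 CPM with vehicle and at 5.27, 1.48 and 0.229 CPM with rebamipide. Its log2 fold change of -1.29 ± 0.99 did not pass the test, and the first rebamipide library lay within the vehicle range. Fibroblast markers (5 genes, 0 called in edgeR and 2 with an unadjusted p-value under 0.05) summed to 8200, 9074 and 11693 CPM with vehicle and to 9259, 1946 and 1053 CPM with rebamipide, and their part in the Tmem26 values was not tested. Epsti1 (ENSMUSG00000022014, chr14:78141679-78240097, plus strand), an interferon-inducible gene first described in epithelial and stromal cells, was at 4.65, 12 and 11.5 CPM with vehicle and at 11.4, 3.7 and 2.33 CPM with rebamipide. The first rebamipide library again lay within the vehicle range, and the log2 fold change was -0.69 ± 0.69. Macrophage and dendritic cell markers (5 genes) summed to 268, 619 and 698 CPM with vehicle and to 573, 285 and 177 CPM with rebamipide, and the interferon-stimulated genes (6 genes, with 2 called higher) summed to 36.8, 67.3 and 53.9 CPM with vehicle and to 222, 100 and 106 CPM with rebamipide. Their part in the Epsti1 values was not tested. Without the first rebamipide library DESeq2 called Tbx1, Tmem26 and Epsti1 lower, 3 of the 10 genes, where 27.3% of all genes were called lower. EdgeR then gave log2 fold changes of -4.51, -2.73 and -1.63 and called none of these genes, with adjusted p-values of 0.066, 0.0771 and 0.0788. In that edgeR fit 12.8% of all genes were called lower. Without the third rebamipide library instead, the edgeR log2 fold changes of Tbx1, Tmem26 and Epsti1 were -1.65, -0.75 and -0.30, and DESeq2 gave adjusted p-values of 0.197, 0.464 and 0.808.

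Tnfrsf9 (ENSMUSG00000028965, chr4:150999019-151030559, plus strand), the 4-1BB costimulatory receptor of activated T cells, was at 1.34, 0.69 and 3.78 CPM with vehicle and at 1.65, 0.429 and 0.84 CPM with rebamipide. The groups overlapped and the log2 fold change was -0.99 ± 0.80, or -0.89 without the third rebamipide library and -0.03 without the third vehicle library. T cell markers (6 genes) summed to 12.9, 16.5 and 27.2 CPM with vehicle and to 14.5, 10.8 and 7.98 CPM with rebamipide, and their part in these values was not tested. Tnfrsf9 overlaps the oppositely oriented Camta1 by 28781 bases, and the reads of the shared stretch cannot be told apart without strand. Camta1, a calmodulin-binding transcription factor, had 1867, 1809 and 1035 counts with vehicle and 411, 422 and 341 with rebamipide. The divergent neighbour Park7, a redox-sensitive chaperone, lies 124 bases away and had 4441, 5001 and 6082 counts with vehicle and 5850, 3845 and 3632 with rebamipide.

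**Figure D4:**
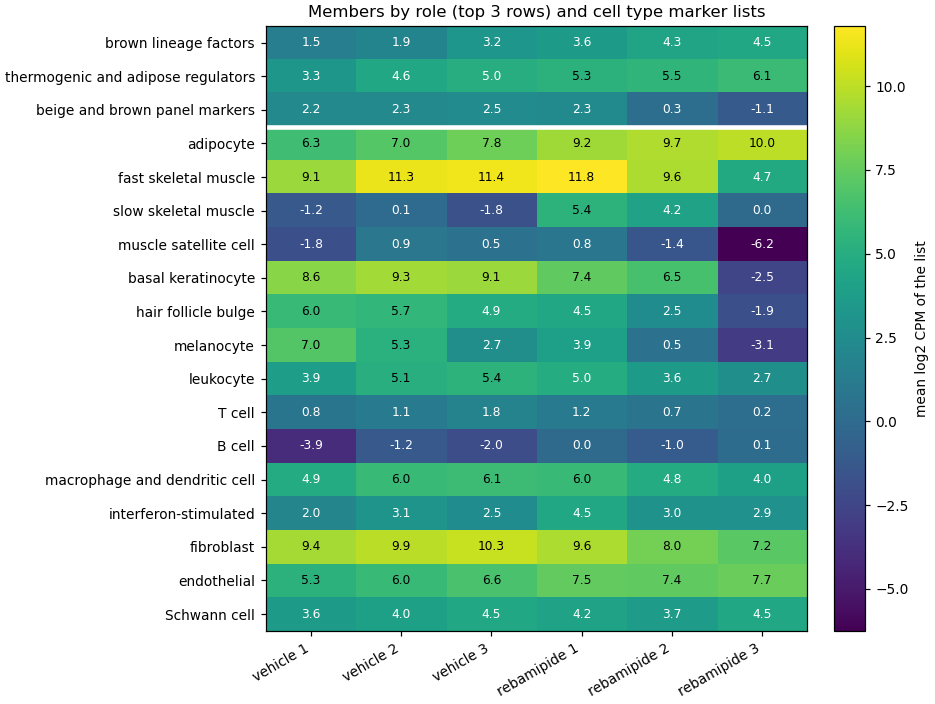
Mean log2 CPM in 6 libraries (columns) of the 10 genes grouped by role (top 3 rows) and of cell type marker lists (rows below the white line), with the value written in each cell and shown by colour. The adipocyte row is higher in the 3 rebamipide libraries, and the panel marker row is lowest in the third rebamipide library. Also lowest there are the basal keratinocyte, hair follicle bulge, melanocyte, fast muscle, satellite cell, leukocyte, T cell, macrophage and fibroblast rows.

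Per gene length, as FPKM, the 10 genes were weakly to moderately expressed. With rebamipide Ebf2 was at 5.65, 9.92 and 9.52 FPKM, and Zbtb16 and Irf4 overlapped it in level. Prdm16 followed at 2.77, 2.45 and 4.66 FPKM, Zic1 at 1.94, 2.09 and 1.42 and Lhx8 at 0.567, 0.885 and 1.35. Zic1 was above Lhx8 in each of these libraries, and in the third by less than the spread of either gene. With vehicle Prdm16 was at 0.565, 0.943 and 1.04. By comparison Ucp1, the heat-producing uncoupling protein, was at 0 reads with vehicle in all 3 mice and at 81048, 220449 and 150572 reads with rebamipide, or 1515, 3919 and 2652 FPKM.

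Of the 10 thermogenic output genes edgeR called 8 higher and 0 lower, with a median log2 fold change of 3.99. Of all genes tested edgeR called 14.1% higher and 6.51% lower. DESeq2 called 9 of these 10 higher and 1 lower, where it called 18.3% of all genes higher and 17% lower. By total counts alone and with limma on log2(FPKM + 1) 1 was also called lower, where 25.2% and 32.3% of all genes were called lower. With adipocyte scaling 6 were called higher and 1 lower, where 0.8% of all genes were called higher and 85.9% lower. Examples were Cidea, a lipid droplet protein of brown fat, at 36 ± 21.4 CPM with vehicle and 2693 ± 1027 CPM with rebamipide (mean ± SD, n = 3), and Kcnk3, a potassium channel, at 2.75 ± 0.819 and 441 ± 182 CPM. Cox8b, a cytochrome c oxidase subunit of brown fat and muscle, was at 22.9 ± 15 and 408 ± 91.9 CPM. The coactivator gene Ppargc1a had a log2 fold change of 2.30 with an adjusted p-value of 0.0594 in edgeR, and Elovl3, a fatty acid elongase, one of -1.45 with 0.0575. Of the 17 partners of PRDM16 and EBF2 and further brown fat regulators, 4 were called higher and 0 lower, with a median of 0.79. In edgeR 14.1% of all genes were called higher and 6.51% lower. The 4 called partners were Pparg, the master regulator of fat cells, with a log2 fold change of 2.73, Esrra, a nuclear receptor of mitochondrial genes, with 2.27, and the factors Klf11 and Zfp423 with 1.36 and 1.31. Pparg is also among the 6 adipocyte markers that set the adipocyte scaling. The corepressor and methyltransferase partners Ehmt1, Ctbp1, Ctbp2 and Kdm1a had log2 fold changes of -0.02, 0.42, -0.33 and -0.48, none of which passed the test. Over the alternatives, the number of these 17 called higher ranged from 0 to 8 (8 in DESeq2, 2 by total counts alone) and the number called lower from 0 to 10 (10 with adipocyte scaling). Of all genes, 18.3% were called higher in DESeq2, 8.46% higher by total counts alone and 85.9% lower with adipocyte scaling.

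Other genes used to tell depots apart were counted in the same way, where 14.1% of all genes were called higher and 6.51% lower in edgeR. Of 7 further brown panel genes 3 were called higher and 0 lower, with a median of 1.11, namely Ebf3 with 3.41, the pyruvate dehydrogenase kinase gene Pdk4 with 4.42 and the oxoprolinase gene Oplah with 2.39. Of 7 further beige panel genes 6 were tested and 3 were called higher and 0 lower, with a median of 2.55: the amino acid transporter gene Slc36a2 with 4.98, the purinergic receptor gene P2rx5 with 3.72 and the carbonic anhydrase gene Car4 with 4.04. Cited1, used as a beige marker, did not pass the filter, with 2 to 22 counts in the libraries. Of 9 white fat panel genes 7 were tested, 1 was called higher (Nnat, 1.53) and 0 lower, with a median of -0.49. In edgeR the Nnat call was lost with any 1 library left out, by total counts alone and with adipocyte scaling. It was also lost with limma on log2(FPKM + 1). Lep and Retn, encoding the white fat hormones leptin and resistin, had log2 fold changes of -0.53 and -0.23 and did not pass the test, and Tcf21, a white fat marker, had 0 counts in all 6 libraries. Slc36a2 and P2rx5 mark brown as well as beige fat cells. The further beige panel genes Klhl13 and Sp100 had log2 fold changes of -0.76 and 0.72 and did not pass the test. With adipocyte scaling the counts were 1 higher and 3 lower in the brown panel, 2 and 3 in the beige panel and 0 and 6 in the white fat panel. This scaling called 0.8% of all genes higher and 85.9% lower.

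Within the gene families, the EBF paralogs Ebf1 and Ebf3 were called higher, with log2 fold changes of 2.02 and 3.41, and Ebf4 (-0.75) was not, which made 2 of 3 with a median of 2.02. Over all genes edgeR called 14.1% higher and 6.51% lower. Ebf1 had an adjusted p-value of 0.0476 in edgeR, and 1 of the 3 was called with RLE or upper quartile factors, by total counts alone, with limma on log2(FPKM + 1), without a filter, and without the first vehicle or the third rebamipide library. These settings called 6.6% to 13.5% of all genes higher. With adipocyte scaling 0 of the 3 were called higher and 1 lower, where 0.8% of all genes were called higher and 85.9% lower. Ebf1 had 19.6, 31.3 and 51.8 CPM with vehicle and 59.9, 166 and 191 CPM with rebamipide. Of the T-box paralogs 8 of 12 were tested and 3 were called higher and 0 lower (Tbx2 1.71, Tbx3 2.09, Tbx5 4.05), with a median of 1.37, beside the -2.23 of Tbx1, and with adipocyte scaling 1 was called higher and 3 lower. Tbx15, a factor of dorsal dermis and of fast muscle and fat, was at 45.6, 110 and 133 CPM with vehicle and at 100, 24.6 and 5.95 CPM with rebamipide and was not called. Of the 8 IRF paralogs 0 were called in edgeR, with a median of 0.12, and 1 had an unadjusted p-value under 0.05. DESeq2 called 1 of the 8 lower, where it called 17% of all genes lower. Only Zic4 of 4 ZIC paralogs and 2 of 7 LHX paralogs (Lhx2 and Lhx6) passed the filter, and edgeR and DESeq2 called 0 of these, with 0 unadjusted p-values under 0.05 in edgeR. Of 4 genes of the 4-1BB ligand and related receptors, with a median of -1.33, edgeR called 0, while 2 had an unadjusted p-value under 0.05 (Tnfrsf4 and Tnfrsf18) and DESeq2 called 2 lower. By total counts alone and with limma on log2(FPKM + 1) 3 of the 4 were called lower, where 25.2% and 32.3% of all genes were. With adipocyte scaling 4 of these genes, 7 IRF, 2 LHX and 1 ZIC paralogs were called lower and 0 higher, where 85.9% of all genes were called lower. Without the third rebamipide library edgeR called higher 6 of the thermogenic output genes, 2 of the partners, 3 of the brown panel, 3 of the beige panel, 0 of the white fat panel, 1 EBF paralog and 2 T-box paralogs, and 0 genes of these lists lower. In that fit 6.6% of all genes were called higher and 2.49% lower. Without the second vehicle or the second rebamipide library edgeR called 0 genes of any of these lists, and 0 and 1 of all genes.

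**Figure D5:**
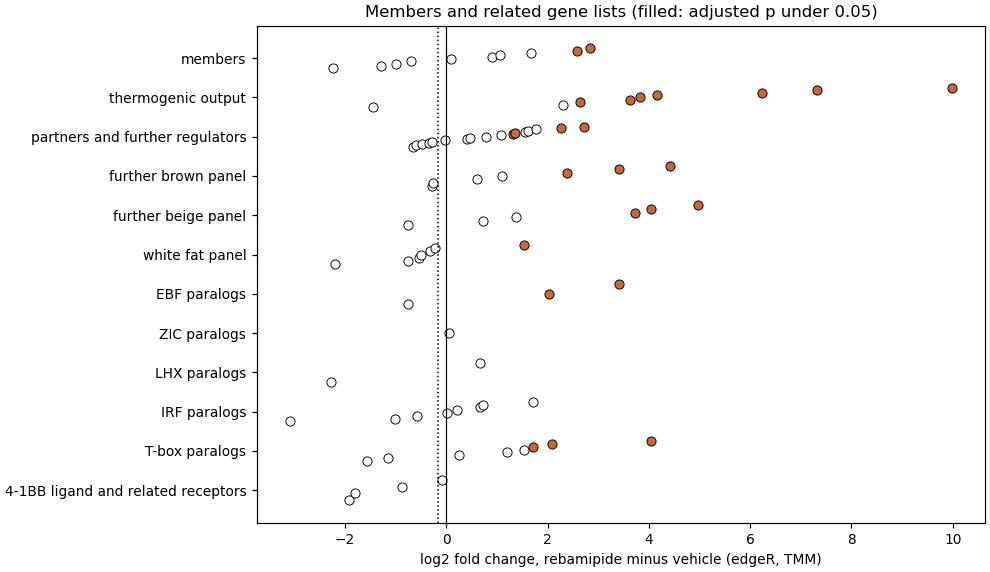
Log2 fold changes of the 10 genes (top row) and of the related gene lists (1 point per tested gene), where filled orange points passed an adjusted p-value of 0.05 in edgeR, the dotted line is the median of all genes at -0.17, and Ucp1, at 0 counts in all vehicle libraries, is not drawn. Calls are all in the higher direction, and the IRF, ZIC and LHX paralogs have none.

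The genes whose log2 CPM followed each of the 10 most closely over the 6 libraries were ranked by Pearson's r among 13633 genes, as a description. The 6 points share library composition and depth. An r over 0.95 was reached by 1406 genes with Prdm16, 1221 with Ebf2, 512 with Tmem26, 414 with Tbx1, 356 with Epsti1, 246 with Irf4 and 120 with Zbtb16, and by 12 with Zic1, 5 with Lhx8 and 1 with Tnfrsf9. The closest to Prdm16 was Rfesd (r = 0.999) and to Ebf2 were Lix1 and Dmrt2 (r = 0.999 each). For Tbx1 the first 5 were Tyrp1, a melanin synthesis enzyme, Wif1, Kif2c, Fbn2 and Cdh3, each with r = 0.996. For Epsti1 they included Clec4a1 (r = 0.999) and the lysozyme gene Lyz2 (r = 0.996), both genes of myeloid cells, and for Tmem26 the closest was C1qtnf3 (r = 0.998). Irf4 was closest to Pgap6 (r = 0.999), Zbtb16 to Pgrmc2 and F3 (r = 0.994 each), Zic1 to Sec22b (r = 0.982), Lhx8 to Bcl3 (r = 0.984) and Tnfrsf9 to Sult1e1 (r = 0.981).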

How the data were processed

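Libraries of poly-A RNA from full-thickness dorsal skin were sequenced by the authors on DNBSEQ-T7, and per the labels the processing named fastp 0.22.0, HISAT2 2.1.0, HTSeq 0.9.1 and GRCm39. The authors deposited raw read counts per gene and FPKM values, and the FPKM follow from the counts, the gene lengths and the library totals (largest relative deviation 5.10e-14). All columns were matched to samples by name, and replicates of a group differed by more than sampling noise.

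Counts were normalized by TMM and tested in edgeR 4.0.16 (R 4.3.3) with filterByExpr, the quasi-likelihood test and Benjamini-Hochberg adjustment over all genes. DESeq2 1.42.0, limma 3.58.1 (voom, and log2(FPKM + 1) with a pseudocount of 1), other scalings and filters, a replicate block and each library left out in turn were the alternatives. DESeq2 with a library left out and the Zic1 ratios were added after the data were seen. Tests were checked on simulated data. The 10 genes and the gene lists were chosen with earlier results of these data known. Named genes are the 10, the called genes of highest mean CPM in each pathway and family list (up to 4; cell type lists are given mainly by their sums), overlapping or divergent neighbours within 20 kb, and the closest genes by Pearson's r, with others named for contrast after their values were seen. Promoters are from RefSeq, and no positions were converted between builds. Separate mice are the replicates, and 3 per group limit the precision. Values of some single genes in the lists are not reported here.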

Additional observations from a re-analysis of the deposited data

How the results depend on the processing

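Over 16 alternatives for each of the 10 genes, 138 of 160 log2 fold changes kept their direction and their side of the threshold. Of the others, 6 lost the call, 2 gained a call as higher (both Zbtb16) and 6 gained one as lower, all with adipocyte scaling. The sign changed in 11, of which 1 was a lost call, 2 were gained calls and 8 were not called in either. Scaled to 6 adipocyte markers, edgeR called 0 of the 10 higher and 6 lower (0.8% and 85.9% of all genes), and the log2 fold changes of Prdm16, Zic1, Lhx8, Irf4 and Zbtb16 were -0.01, -2.33, -1.16, -1.54 and -0.80. This scaling sets the adipocyte rise to 0 by construction. The small Zic1 value was also below 0 with upper quartile factors (-0.01), total counts alone (-0.52) and limma on log2(FPKM + 1) (-0.31), and ranged from -0.22 to 0.59 with 1 library left out. With 1 library left out, edgeR called 0 to 2 of the 10 higher, where it called 0% to 18.3% of all genes higher. It called 0 of the 10 higher without the second vehicle or the second rebamipide library. DESeq2 with 1 library left out called 2 to 5 higher and 0 to 3 lower, where it called 13.3% to 23.8% of all genes higher and 9.49% to 27.3% lower. The cause was not tested.

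A replicate block called 3 of the 10 higher (adding Zbtb16, adjusted p-value 0.0399 in edgeR), where 9.63% of all genes were called higher. Same-numbered samples had correlations of 0.011, -0.041 and 0.022 after group means were removed, so the numbers were not taken to pair the mice, and no sample correlated best with its own number. Low counts in some libraries of Lhx8 (8 to 173), Tnfrsf9 (11 to 177), Tmem26 (6 to 359) and Tbx1 (2 to 1117) limit the precision of those values. The standard errors of their log2 fold changes were 1.12, 0.80, 0.99 and 1.38.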
